A study of Homo sapiens with 24 samples.

Results

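Potassium channel genes were followed through the neural differentiation of human induced pluripotent stem cells (hiPSCs) with and without knockdown of *ROR2*. The set comprised every single gene symbol of the array that starts with KCN followed by letters and a number, with antisense and intronic RNA genes left out. This gave 86 genes of 33616 single symbols: 34 voltage-gated subunits, 15 inward rectifiers, 15 2-pore-domain channels, 7 calcium- or sodium-activated channels and 15 auxiliary subunits. Where a gene had several transcript clusters, which applied to 5 genes, the 1 with the highest mean signal over the 24 arrays was used. Clusters that carry more than 1 symbol were not used.

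The cells were R-2A (HiPS-RIKEN-2A) hiPSCs, an established line. Control cells carried a control shRNA (sh-C) and *ROR2* KD cells carried an shRNA that knocks down *ROR2*, a receptor tyrosine kinase for the Wnt ligand WNT5A. Total RNA was taken from undifferentiated cells (day 0) and on days 7, 14 and 21 of neural induction with dual SMAD inhibition, and was hybridized to 24 Clariom D arrays, 3 for each cell line and day. Values are log2 signals from robust multi-array average (RMA), so a difference of 1 is a 2-fold change in signal. Every shRNA-carrying group derives from the same parental line, and the labels do not tell separately transduced cultures apart. P-values therefore measure the spread between these samples, and whatever else sets the control and *ROR2* KD lines apart cannot be told apart from the knockdown.

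Potassium channels let potassium ions cross the cell membrane and so set the resting potential of a cell. Voltage-gated channels open on depolarization and end action potentials, inward rectifiers and 2-pore-domain channels carry the currents that hold a cell at rest, and calcium- or sodium-activated channels respond to these ions inside the cell. Auxiliary subunits bind the pore-forming subunits and change their gating or surface expression, and neurons acquire most of these currents as they mature.

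The promoters of the 3 members that were higher in *ROR2* KD cells on day 14, the inward rectifier *KCNJ13* and the voltage-gated *KCNH8* and *KCNH5*, are shown because the data describe their transcript levels. Each line gives the 250 bases before the RefSeq start site in GRCh38.p14, written 5′ to 3′ on the strand of the gene, with capitals for matches to TATAAA (the TATA box), CAGCTG (an E-box, the motif of basic helix-loop-helix factors) and CACATGA (another E-box with a flanking base), searched on both strands.
*KCNJ13*, chr2:232776566-232776815, minus strand: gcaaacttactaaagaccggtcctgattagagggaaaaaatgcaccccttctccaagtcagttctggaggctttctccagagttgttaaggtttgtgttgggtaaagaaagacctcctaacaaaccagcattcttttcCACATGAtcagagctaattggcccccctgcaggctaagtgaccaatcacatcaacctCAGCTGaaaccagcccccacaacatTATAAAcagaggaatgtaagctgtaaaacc
*KCNH8*, chr3:19148260-19148509, plus strand: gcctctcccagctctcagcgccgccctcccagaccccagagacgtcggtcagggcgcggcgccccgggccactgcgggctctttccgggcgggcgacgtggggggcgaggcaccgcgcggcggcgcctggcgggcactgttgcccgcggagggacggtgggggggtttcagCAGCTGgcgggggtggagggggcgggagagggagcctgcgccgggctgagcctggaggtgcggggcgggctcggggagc
*KCNH5*, chr14:63045459-63045708, minus strand: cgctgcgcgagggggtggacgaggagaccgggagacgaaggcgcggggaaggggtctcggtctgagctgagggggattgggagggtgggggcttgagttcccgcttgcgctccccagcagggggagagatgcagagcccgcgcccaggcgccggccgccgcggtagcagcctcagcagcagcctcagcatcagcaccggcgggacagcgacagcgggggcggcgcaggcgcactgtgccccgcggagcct

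The *KCNJ13* window held all 3 motifs and its TATAAA begins 30 bases before the start site, whereas *KCNH8* held CAGCTG alone and *KCNH5* held none of them. Of 35116 RefSeq promoter windows of the same length, 10.7% held TATAAA, 14% held CAGCTG and 2.52% held CACATGA. The shares were 8.74%, 17.5% and 3.88% of the 103 windows of members. GC content was 45.2% for *KCNJ13*, 79.2% for *KCNH8* and 74% for *KCNH5*, beside a median of 58% over all windows. Promoter windows were found for 66 of the 86 members. A match describes the letters of the window and is not evidence of binding.

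*ROR2* itself averaged 7.81, 9.29, 6.55 and 4.45 in control cells on days 0, 7, 14 and 21, and 5.29, 6.67, 3.98 and 3.57 in *ROR2* KD cells. Its difference passed the test on days 0, 7 and 14 but not on day 21 (log2 difference -0.89, SE 0.259, adjusted p = 0.0823), when its signal was low in both lines, and it was above background only in control cells on day 7. The background level of an array was taken as the 95th percentile of the 23 probe sets that measure background. It lay between 7.30 and 9.97 and was highest on day 0 (8.96 to 9.97). The 5 pluripotency markers measured were above background on all day 0 arrays, and their mean fell to at most 9.73 by day 21. *LIN28A*, *DNMT3B* and *SOX2* were still above background on every day 21 array. *SOX2* did not fall, with day 0 and day 21 means of 14.82 and 16.21 in control and 15.15 and 15.35 in *ROR2* KD cells. The 6 neuron markers averaged 14.27 to 14.44 on the control arrays of day 21 and 15.04 to 15.07 on the *ROR2* KD arrays, so the day 14 and 21 samples held neuronal RNA as well as that of progenitors. In such bulk samples, a change in the number of cells of a type cannot be told apart from a change in RNA per cell.

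Most members were dim. Of the 86 genes, 62 were above background on no array, 18 on at least 3 arrays and 2 on all 24, and 17 were above it on all 3 arrays of at least 1 group. Between 3 and 6 members were above background on each array of days 0 and 7. This number was 7 to 8 in control and 11 to 14 in *ROR2* KD cells on day 14, and 12 to 13 against 14 to 22 on day 21. The background level was lower on the *ROR2* KD arrays of day 14 (7.76 to 8.07) than on the control arrays (8.54 to 8.87). On day 21 the *ROR2* KD arrays with background levels of 7.30, 7.59 and 8.32 held 22, 19 and 14 such members, and the control levels were 8.29 to 8.40. The part of the background level in these counts was not tested.

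The 6 members with the highest mean over all arrays were *KCNT2*, *KCNMB4*, *KCNH2*, *KCNH7*, *KCNK10* and *KCNH8*. *KCNT2*, a sodium-activated channel, was the brightest, at 10.34 to 10.53 on the control arrays of day 0, 13.97 to 14.65 on day 7, 13.34 to 13.65 on day 14 and 11.81 to 11.93 on day 21. *ROR2* KD cells followed the same course, from 10.13 to 10.27 on day 0 through 13.85 to 14.45 on day 7 to 11.97 to 12.55 on day 21. It thus peaked on day 7 in both lines, with a rise from day 0 of 3.84 (SE 0.212, adjusted p = 2.06e-12) in control and 3.98 (SE 0.212, adjusted p = 1.28e-12) in *ROR2* KD cells on the log2 scale. *KCNMB4*, the brain-enriched auxiliary subunit of the large-conductance calcium-activated channel, ran the other way. Its mean was 12.42 on day 0 in control cells, fell to 9.33 on day 7 and was 10.11 and 11.29 on days 14 and 21, and the *ROR2* KD means were 11.92, 8.84, 10.20 and 11. Neither gene was called between the cell lines on any day.

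**Figure D1:**
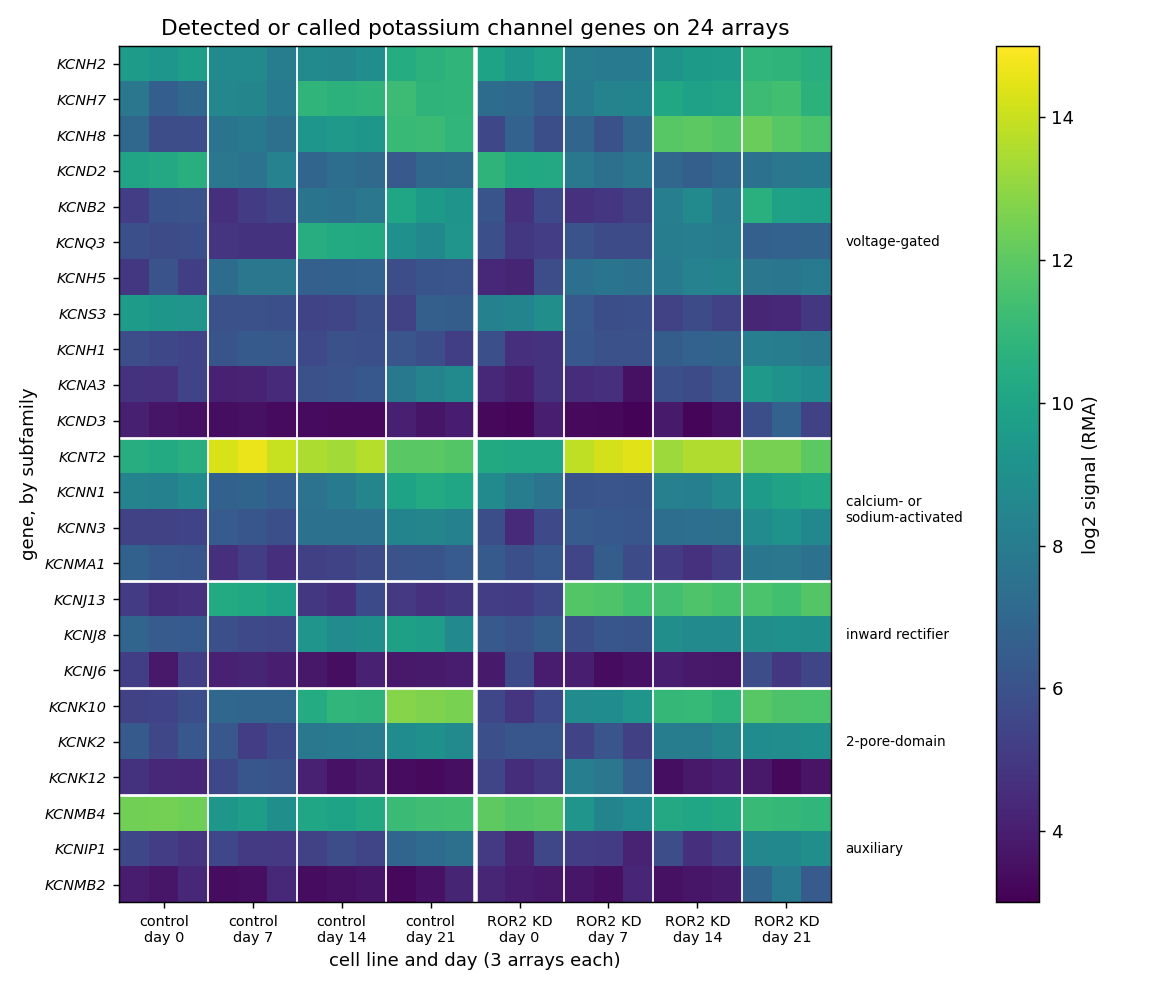
Log2 signal (RMA, colour) of the 24 members that were above background on all 3 arrays of a group or were called between the cell lines, on each of the 24 arrays (columns, grouped by cell line and day) and ordered by subfamily. *KCNT2* is brightest on day 7 in both lines, *KCNJ13* stays bright on days 14 and 21 in the *ROR2* KD line but not in control, and *KCNMB2* is highest on the *ROR2* KD arrays of day 21.

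The difference between *ROR2* KD and control cells was tested for each gene and day with limma, with Benjamini-Hochberg adjustment over all 135750 transcript clusters, and genes past an adjusted p of 0.05 with more than a 2-fold change are referred to as called. On day 0, 0 of the 86 members were called, beside 0.0803% of all genes (1 cluster per symbol). In limma, 11 members had an unadjusted p under 0.05, and the share of all genes at that threshold was not determined. The number called was also 0 under each of the 21 alternative settings. On day 7, 4 were higher and 0 lower in *ROR2* KD cells (4.65%, beside 0.277% of all genes, of which 0.113% were higher and 0.164% lower). On day 14, 3 were higher and 1 lower (4.65%, beside 1.7% of all genes, 0.934% higher and 0.77% lower). On day 21, 8 were higher and 3 lower (12.8%, beside 4.67% of all genes, 2.16% higher and 2.51% lower). In all, 13 genes were called on at least 1 day. The day 7 count was 1 without control replicate 3, and 2 without control replicate 1, control replicate 2 or *ROR2* KD replicate 2. The day 21 count was 5 when only clusters above background on at least 3 arrays were tested, and 1 with an unpaired t-test per cluster.

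The typical member did not move with them. The median log2 difference of the 86 genes was -0.13, -0.01, -0.05 and 0.05 on days 0, 7, 14 and 21. The median over all genes (1 cluster per symbol) was -0.10, 0.01, -0.03 and -0.02. By subfamily, 5 of 34 voltage-gated genes were called on day 21 (3 higher, 2 lower). So were 2 of 15 inward rectifiers (both higher), 1 of 15 2-pore-domain channels (lower), 1 of 7 calcium- or sodium-activated channels (higher) and 2 of 15 auxiliary subunits (both higher). Beside these stood 4.67% of all genes, 2.16% higher and 2.51% lower. Whether any subfamily differed from all genes was not tested, and counts of 1 or 2 genes are too few to tell. The difference between the lines itself changed for 1 member from day 0 to 7, 4 from day 7 to 14 and 3 from day 14 to 21, beside 0.0744%, 0.875% and 1.38% of all genes.

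**Figure D2:**
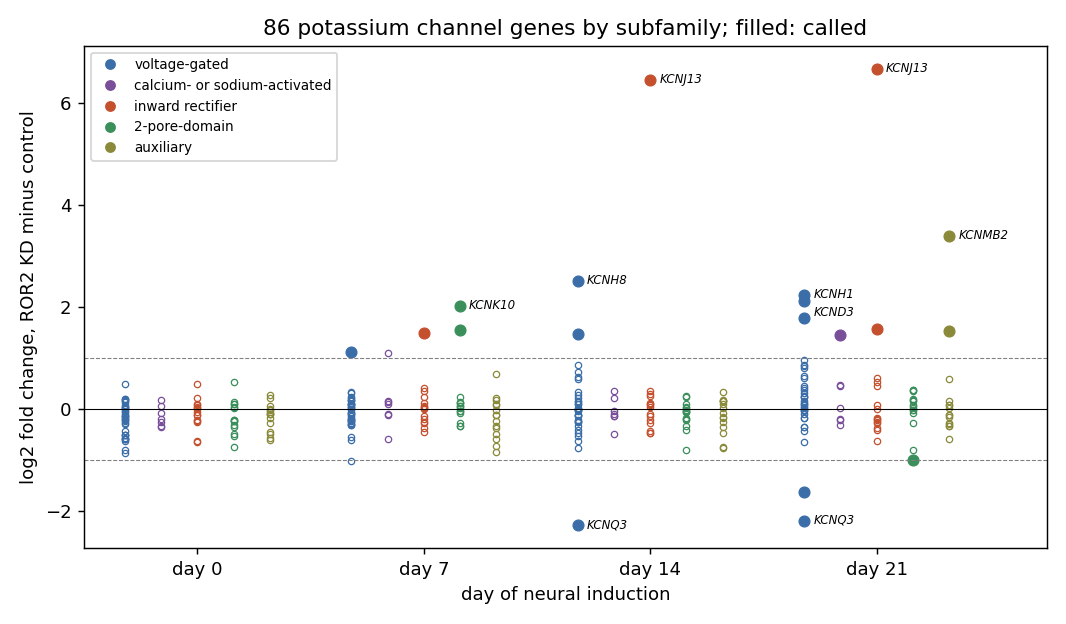
Log2 fold change of *ROR2* KD minus control (y axis) for each of the 86 members on each day (x axis), coloured by subfamily, with filled points for called members and dashed lines at 1 and -1. No point is filled on day 0, and *KCNJ13* stands far above all others on days 14 and 21, at 6.46 and 6.68.

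*KCNJ13*, an inward rectifier known from the retinal pigment epithelium and the choroid plexus, showed the largest difference of any member. Undifferentiated control cells read 5.13, 4.56 and 4.70 and *ROR2* KD cells 5.17, 5.11 and 5.56, all below background. On day 7 the signal was high in both lines, at 10.34, 10.13 and 9.86 in control and 11.81, 11.68 and 11.35 in *ROR2* KD cells, which did not overlap. Control cells then returned to 4.94, 4.62 and 5.70 on day 14 and 5.0, 4.72 and 4.95 on day 21, while *ROR2* KD cells stayed at 11.43, 11.68 and 11.52 and at 11.58, 11.36 and 11.77. The gene was therefore transient in control and sustained in *ROR2* KD cells.

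The log2 difference of *KCNJ13* was 1.5 on day 7 (SE 0.245, adjusted p = 0.00541), 6.46 on day 14 (SE 0.245, adjusted p = 1.63e-13) and 6.68 on day 21 (SE 0.245, adjusted p = 2.27e-14). Because control cells were below background on days 14 and 21, the fold is given as a bound, from the *ROR2* KD mean over the background level of the control arrays: at least 7.27-fold on day 14 and at least 9.44-fold on day 21. The difference between the lines itself grew by 4.96 from day 7 to day 14 (SE 0.346, adjusted p = 1.84e-08), and the change from day 14 to 21 was 0.22 (SE 0.346, adjusted p = 0.999). Without control replicate 3 the adjusted p of day 7 was 0.0548.

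The tissues in which *KCNJ13* is best known were looked for through their markers. Of the 7 pigment epithelium markers measured, 0 were above background on any array of day 14 or 21, and only *PMEL* was above it on all day 7 arrays. Of the 5 choroid plexus markers, *TTR*, *AQP1* and *FOLR1* were above background on no array and were called on no day. *OTX2* was above it on all arrays, 1.62 higher in *ROR2* KD cells on day 7 (adjusted p = 0.000595) and lower on day 21 (log2 difference -3.33, adjusted p = 1.22e-10). *CLIC6* was above background on 2 of the 24 arrays, both *ROR2* KD arrays of day 21, when its log2 difference was 2.87 (adjusted p = 1.21e-06). Its day 7 difference was -0.96 (adjusted p = 0.212). *KCNJ13* lies within the gene *GIGYF2*, whose log2 differences were -0.06, 0.11, 0.25 and 0.29 on the 4 days, and 0 of these were called.

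*KCNH8*, a voltage-gated channel of the ether-à-go-go family, was higher in *ROR2* KD cells on day 14. On day 7 the control arrays read 7.61, 7.86 and 7.42 and the *ROR2* KD arrays 6.89, 5.96 and 6.97, none above background, with *ROR2* KD below control and no overlap (log2 difference -1.02, SE 0.317, adjusted p = 0.2). On day 14 they read 9.31, 9.47 and 9.34 against 11.87, 11.97 and 11.79. By day 21 the lines had drawn closer, at 11.07, 11.16 and 10.91 against 12.25, 11.87 and 11.61. The groups did not overlap on day 14, when the log2 difference was 2.5 (SE 0.317, adjusted p = 5.25e-05, 5.67-fold). The day 21 difference of 0.86 (SE 0.317, adjusted p = 0.232) did not pass the test. From day 7 to 14 the difference between the lines changed by 3.53 (SE 0.448, adjusted p = 0.000145).

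*KCNH5*, of the same family, was dimmer and separated the lines on both later days. On day 14 the control arrays read 6.68, 6.74 and 6.76 and the *ROR2* KD arrays 7.91, 8.31 and 8.40, and on day 21 they read 5.83, 6.11 and 6.14 against 7.78, 7.69 and 7.95. Control cells were below background throughout, whereas the *ROR2* KD cells were above it on 3 arrays of day 14 and 2 of day 21. The *ROR2* KD values of day 14 lay below the background level of the control arrays of that day (8.54 to 8.87), so the bound is under 1 and no fold is given. The log2 difference was 1.48 on day 14 (SE 0.319, adjusted p = 0.0234) and 1.78 on day 21 (SE 0.319, adjusted p = 0.00143). Leaving out any control array of day 14, or *ROR2* KD replicate 2 or 3 of that day, gave a day 14 adjusted p of 0.0889 to 0.154.

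*KCNQ3*, a subunit of the M-current channel that limits repetitive firing, was lower in *ROR2* KD cells from day 14. Control cells read 10.46, 10.34 and 10.27 on day 14 and 9.02, 8.59 and 9.26 on day 21. The *ROR2* KD cells read 8.06, 8.12 and 8.03 and then 6.69, 6.79 and 6.82. The 2 lines were far apart on both days, with log2 differences of -2.29 (SE 0.216, adjusted p = 6.64e-07) and -2.19 (SE 0.216, adjusted p = 4.14e-07). The *ROR2* KD arrays of day 21 were all below background, so the control level was at least 2.33-fold higher.

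The sign was opposite on day 7, when both lines were below background, at 4.8, 4.75 and 4.77 in control and 6.08, 5.80 and 5.79 in *ROR2* KD cells (log2 difference 1.12, SE 0.216, adjusted p = 0.0223). The change of the *KCNQ3* difference from day 7 to 14 was -3.41 (SE 0.305, adjusted p = 9.81e-07). Without any 1 of the control arrays of day 7, or without *ROR2* KD replicate 2, the day 7 adjusted p of *KCNQ3* was 0.0911 to 0.114.

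*KCNK10*, a 2-pore-domain channel opened by membrane stretch and fatty acids, rose in both lines over the time course and was above background by day 7 in *ROR2* KD cells only. On day 7 the control arrays read 7.01, 6.92 and 6.92, below background, and the *ROR2* KD arrays 8.80, 8.81 and 9.28, above it. The lines overlapped on day 14, at 10.36, 10.91 and 10.81 against 11.01, 11.04 and 10.74, and their order was reversed on day 21, at 12.83, 12.70 and 12.60 against 11.89, 11.64 and 11.59. The log2 difference was 2.01 on day 7 (SE 0.230, adjusted p = 0.000319, at least 1.36-fold by the bound), 0.24 on day 14 (SE 0.230, adjusted p = 1) and -1.01 on day 21 (SE 0.230, adjusted p = 0.0149).

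The difference in *KCNK10* changed by 2.23 from day 0 to 7 (SE 0.325, adjusted p = 0.0127) and by -1.78 from day 7 to 14 (SE 0.325, adjusted p = 0.0105). The day 21 call depended on single arrays: without control replicate 1 or 2, or *ROR2* KD replicate 2 or 3, the adjusted p was 0.0514 to 0.0801. Its relative *KCNK2*, which responds to the same stimuli, was alike in both lines, with means of 8.84 and 8.92 on day 21 (log2 difference 0.08, SE 0.267, adjusted p = 0.966).

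*KCNK12*, another 2-pore-domain gene, was called on day 7 alone, with 5.58, 6.22 and 6.05 on the control arrays and 8.12, 7.74 and 6.67 on the *ROR2* KD arrays. The groups did not overlap, but all 6 values lay below background (log2 difference 1.56, SE 0.303, adjusted p = 0.0253). Without any 1 control array of day 7, or without *ROR2* KD replicate 2, the adjusted p was 0.0658 to 0.191.

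**Figure D3:**
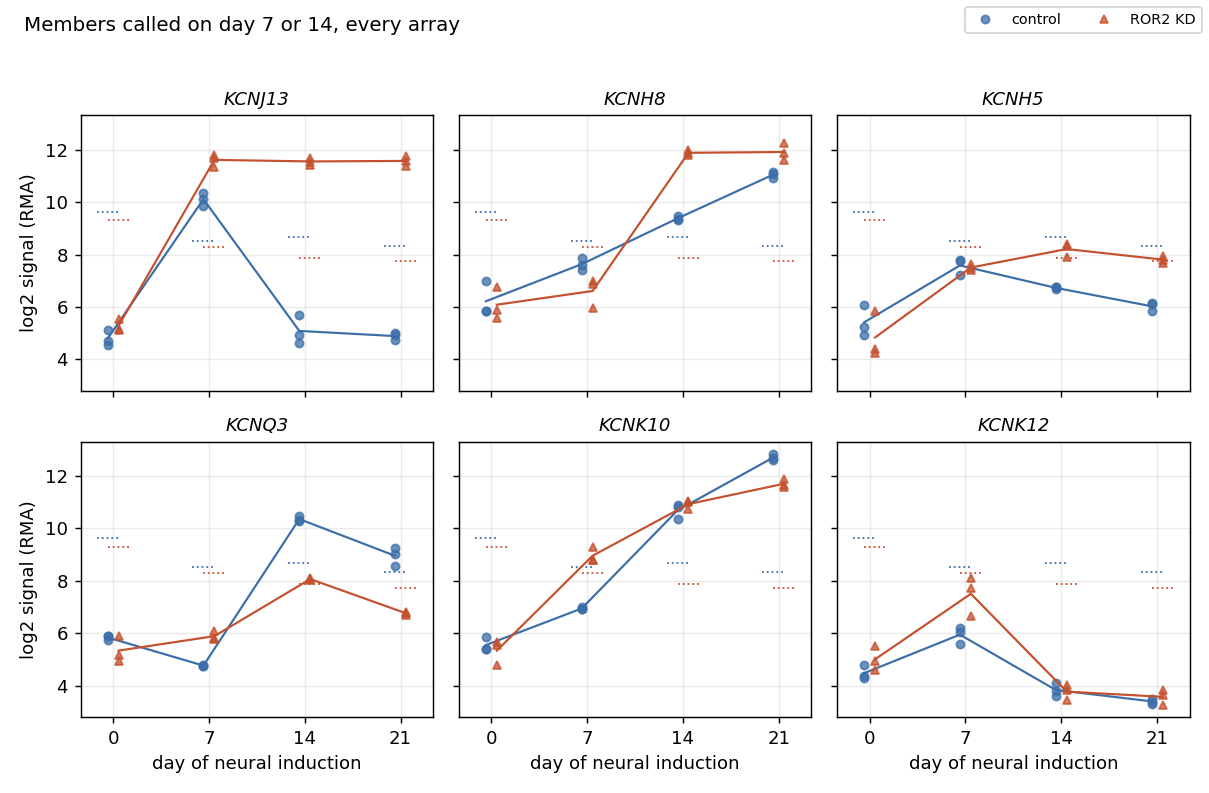
Log2 signal (RMA, y axis) by day (x axis) of the 6 members called between the lines on day 7 or 14, with 1 point per array, lines through the group means and dotted ticks at the mean background level of each group. *KCNJ13* falls back after day 7 in control cells only, *KCNQ3* is lower in the *ROR2* KD line from day 14, and the lines of *KCNK10* cross between days 14 and 21.

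The other 7 of the 11 members called on day 21 were called on that day alone. They included both the pore-forming and an auxiliary gene of the large-conductance calcium-activated channel, and both a pore-forming and an auxiliary gene of the A-type channels that delay firing. Other genes of these channels were not called on day 21. Of the calcium-activated channel these were the auxiliary *KCNMB4* and *KCNMB1* (log2 difference -0.34 for the latter). Of the A-type channels they included the auxiliary *DPP10* (0.04) and *DPP6* (-0.02). *KCNMB2*, the auxiliary subunit that inactivates the calcium-activated channel, read 3.28, 3.59 and 4.23 in control and 6.93, 7.90 and 6.46 in *ROR2* KD cells. The groups did not overlap (log2 difference 3.40, SE 0.329, adjusted p = 3.13e-07), and 1 of the *ROR2* KD arrays was above background. The difference grew by 3.22 from day 14 to 21 (SE 0.465, adjusted p = 0.000416).

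*KCNMA1*, the pore of the same channel, read 6.08, 6.12 and 6.46 in control and 7.71, 7.75 and 7.53 in *ROR2* KD cells (log2 difference 1.44, SE 0.25, adjusted p = 0.000941), and the groups did not overlap. Only 1 of these 6 arrays was above background. On day 7 it read 4.67, 5.17 and 4.64 against 5.49, 6.53 and 5.77 (log2 difference 1.11, adjusted p = 0.0694), and on day 14 it read 5.29, 5.46 and 5.76 against 5.15, 4.71 and 5.17 (log2 difference -0.49, adjusted p = 0.917). The gene has 2 further clusters on the array, with differences of 0.06 and 0.10, and the mean over its clusters differed by 0.54 (adjusted p = 0.27). The change of its difference from day 14 to 21 was 1.94 (SE 0.353, adjusted p = 0.00603).

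*KCND3*, an A-type channel, read 4.07, 3.66 and 3.89 in control and 5.86, 6.78 and 5.35 in *ROR2* KD cells on day 21, separated but all below background (log2 difference 2.12, SE 0.280, adjusted p = 3.25e-05). Its difference changed by 1.91 from day 14 to 21 (SE 0.397, adjusted p = 0.0211). *KCNIP1*, a calcium-binding auxiliary subunit of these channels, read 6.92, 7.18 and 7.41 against 8.58, 8.60 and 8.93. Here the *ROR2* KD arrays were all above background and the control arrays below it (log2 difference 1.53, SE 0.339, adjusted p = 0.0113, at least 1.3-fold). Without control replicate 1 the adjusted p of *KCNIP1* was 0.073. *KCND2*, another A-type gene, had day 21 means of 6.86 and 7.70 and was not called (log2 difference 0.85, SE 0.246, adjusted p = 0.0791).

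*KCNH1*, of the ether-à-go-go family, read 6.16, 5.88 and 5.22 in control and 8.13, 8.06 and 7.79 in *ROR2* KD cells, with 2 of the latter above background (log2 difference 2.24, SE 0.271, adjusted p = 9.35e-06). *KCNJ6*, a G protein-gated inward rectifier of neurons, read 3.80, 3.88 and 3.89 against 5.85, 4.93 and 5.52, all below background (log2 difference 1.58, SE 0.387, adjusted p = 0.0261). Leaving out any control array, or *ROR2* KD replicate 1 or 3, gave *KCNJ6* an adjusted p of 0.0691 to 0.134. *KCNS3*, a modifier subunit without current of its own that joins KCNB channels, was the only one of these 7 to be lower in *ROR2* KD cells. It read 5.39, 6.62 and 6.52 in control and 4.30, 4.40 and 4.95 in *ROR2* KD cells, all below background (log2 difference -1.62, SE 0.278, adjusted p = 0.000842).

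**Figure D4:**
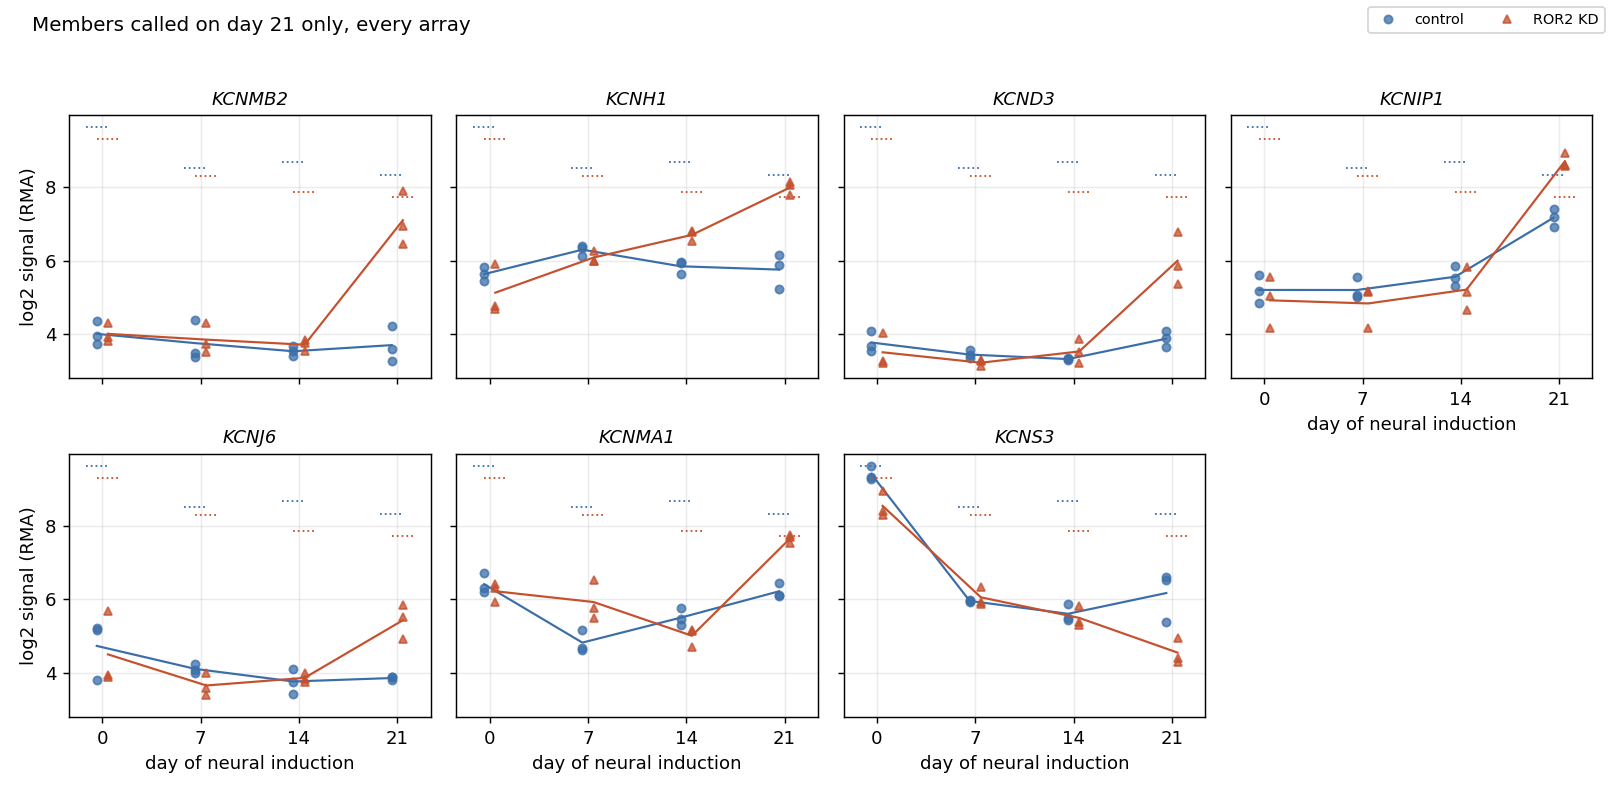
Log2 signal (RMA, y axis) by day (x axis) of the 7 members called between the lines on day 21 only, with 1 point per array, lines through the group means and dotted ticks at the mean background level of each group. On day 14 the lines lie close together for *KCNMB2*, *KCND3* and *KCNJ6*, *KCNMA1* is higher in *ROR2* KD cells on days 7 and 21 but not on day 14, and many of the values lie below background.

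Markers of neurons and of neural progenitors also differed between the lines. The mean of the 6 neuron markers was 8.44 to 8.96 on the control and 8.13 to 8.81 on the *ROR2* KD arrays of day 7, and 12.12 to 12.18 against 13.45 to 13.54 on day 14, a gap that was smaller on day 21. All 6 were above background on every *ROR2* KD array of days 14 and 21, and on the control arrays 5 were so on day 14 and 6 on day 21. The mean of the 6 neural progenitor markers was 12.82 to 13.30 against 13.27 to 13.36 on day 14, and 11.55 to 11.75 against 13.42 to 13.61 on day 21. On day 21 *PAX6* averaged 5.01 in control and 15.59 in *ROR2* KD cells, and *SLC1A3* 10.12 and 13.25. *NES* was lower in *ROR2* KD cells (log2 difference -1.08, adjusted p = 0.000745). The means of *HES5* (13.09 in control, 11.99 in *ROR2* KD cells) and *FABP7* (15.33 and 14.82) were also lower, and those of *SOX1* were 10.57 and 10.87. The higher list mean of day 21 therefore does not describe every progenitor marker. The 4 astrocyte and 4 neural crest markers were above background on no array of any group. The part of cell composition in the potassium channel differences was not tested.

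Overlap between the days was partial. Of the 4 genes called on day 14, 3 were called in the same direction on day 21 (*KCNJ13*, *KCNH5* and *KCNQ3*), which is 75% of the former and 27.3% of the 11 called on the latter. The corresponding overlap of all genes was not determined. Between days 7 and 14, *KCNJ13* kept its direction and *KCNQ3* reversed. *KCNK10* reversed between days 7 and 21.

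Over the differentiation itself, members both rose and fell in either line, and the share called was near that of all genes on day 7 and above it on day 21. In control cells, 10 members were higher and 16 lower on day 7 than on day 0 (30.2%, beside 27.6% of all genes, 10.2% higher and 17.4% lower). They were 14 and 15 on day 14 (33.7%, beside 26.8%, 10.2% higher and 16.6% lower), and 15 and 16 on day 21 (36%, beside 27.7%, 9.15% higher and 18.5% lower). In *ROR2* KD cells 8 were higher and 15 lower on day 7 (26.7%, beside 25.7%, 10.9% higher and 14.8% lower). The counts were 17 and 16 on day 14 (38.4%, beside 27.9%, 12.1% higher and 15.8% lower), and 21 and 14 on day 21 (40.7%, beside 29.6%, 11.5% higher and 18.1% lower). The 3 comparisons of a line share its day 0 arrays. Of the members called by day 21, 16 in control and 15 in *ROR2* KD cells were above background on no array of either day.

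The 2 lines shared most of this course. From day 0 to 21, 27 members were called in the same direction in both lines, which is 87.1% of the 31 called in control and 77.1% of the 35 called in *ROR2* KD cells, and 0 were called in opposite directions. This overlap was not determined over all genes, so it is not shown to be particular to potassium channel genes. By subfamily, 7 of the 34 voltage-gated genes rose and 7 fell in control cells, against 10 and 6 in *ROR2* KD cells. Of the 15 2-pore-domain genes, 2 rose and 5 fell in control and 2 rose and 4 fell in *ROR2* KD cells. Of the 7 calcium- or sodium-activated genes, 3 rose in control and 4 in *ROR2* KD cells by day 21, and 0 fell in either. On day 7, 1 of them rose and 2 fell in control, and 1 rose and 1 fell in *ROR2* KD cells. Over all genes, 9.15% were higher and 18.5% lower by day 21 in control cells, and 11.5% and 18.1% in *ROR2* KD cells. No subfamily was tested against all genes.

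Among the members that rose most was *KCNK10*, from 5.55 to 12.71 in control (log2 change 7.16, SE 0.230, adjusted p = 6.7e-17) and from 5.34 to 11.71 in *ROR2* KD cells (6.36, SE 0.230, adjusted p = 5.36e-16). As the day 0 arrays were below their background, these are rises of at least 8.47-fold and at least 5.3-fold. *KCNH8* rose from 6.22 to 11.05 in control (at least 2.68-fold) and from 6.08 to 11.91 in *ROR2* KD cells (at least 6.09-fold). *KCNH7*, a relative of the cardiac channel *KCNH2*, had its day 21 means at 10.96 and 11.11, after 7.12 and 6.95 on day 0, a rise of at least 2.52-fold and at least 3.5-fold.

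*KCNB2*, a delayed rectifier, rose by 3.85 in control and 4.59 in *ROR2* KD cells on the log2 scale, to means of 9.62 and 10.08. *KCNA3*, a voltage-gated channel best known from lymphocytes, rose by 3.38 and 4.77, to 8.33 and 9.14. The day 0 arrays were below background for both, and the bound exceeded 1 only for *KCNB2* in *ROR2* KD cells (at least 1.71-fold), so no other fold is given for them. *KCNQ3* was among the 6 largest fitted rises in control cells only (3.11, SE 0.216, adjusted p = 8.12e-11), and *KCNJ13* in *ROR2* KD cells only (6.29, SE 0.245, adjusted p = 1.97e-15). *KCNH2* itself, which repolarizes the heart, dipped from 9.54 on day 0 to 8.50 on day 7 and reached 10.66 on day 21 in control cells, and went from 9.74 through 7.96 to 10.75 in *ROR2* KD cells.

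Further members rose in both lines, all from day 0 values below background, so that these log2 changes are not matched by a bound above 1 except for *KCNN1* (at least 1.4-fold in control and at least 1.51-fold in *ROR2* KD cells). The difference in rise between the lines was not tested. *KCNN1* and *KCNN3*, small-conductance calcium-activated channels that follow the action potential, rose by 1.65 and 2.97 on the log2 scale in control and by 1.78 and 3.5 in *ROR2* KD cells. *KCNJ8*, the pore of an ATP-sensitive channel, rose by 2.82 and 2.66, and *KCNC1*, a voltage-gated channel of fast-firing neurons, by 2.61 in either line, although it was above background on 0 control and 2 *ROR2* KD arrays of day 21. *KCNK2* rose by 2.77 in control and by 2.81 in *ROR2* KD cells.

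Most of the largest falls were of genes that were below background already in undifferentiated cells. *KCNK5*, an acid-sensitive 2-pore-domain channel, read 8.94 to 9.08 on the control arrays of day 0 and 3.37 to 4.07 on day 21 (log2 change -5.30, SE 0.295, adjusted p = 1.6e-12), and in *ROR2* KD cells it changed by -4.57 (SE 0.295, adjusted p = 2.04e-11). *KCNK1*, of the same class, changed by -3.95 and -4.87, *KCNS3* by -3.24 and -4.00, and the inward rectifier *KCNJ2* by -3.61 and -2.35. The second *KCNK1* cluster moved far less. Its day 0 and day 21 means were 4.802 and 4.269 in control and 4.889 and 4.232 in *ROR2* KD cells. The large fall of *KCNK1* was thus seen in 1 of its 2 clusters. None of these 4 genes was above background on any array, so their fold is not given. *KCND2* was the exception, with 9.99, 10.22 and 10.51 on the control arrays of day 0, all above background, and 6.36, 7.06 and 7.15 on day 21, a fall of at least 3.76-fold. *KCNG1*, another modifier subunit, changed by -2.39 in control cells, and *KCNMB1*, the smooth muscle auxiliary subunit of the calcium-activated channel, by -1.86 in *ROR2* KD cells. The background probe sets themselves were higher on day 0, with medians of 3.24 to 3.44 against 2.87 to 3.09 on the other days, and their part in the falls was not tested.

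**Figure D5:**
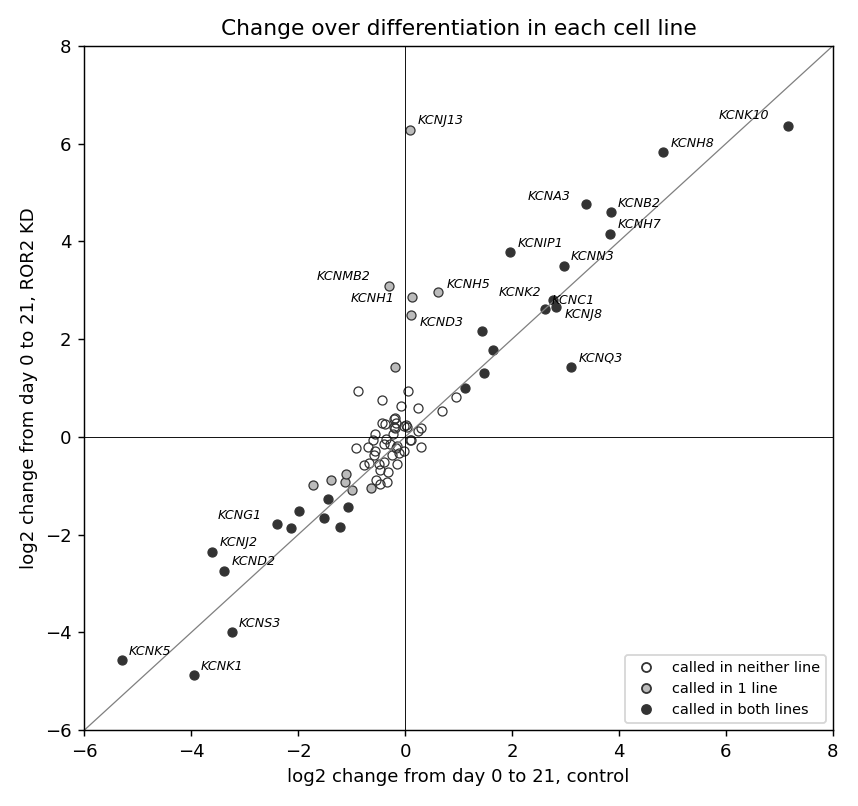
Log2 change from day 0 to day 21 in *ROR2* KD cells (y axis) against that in control cells (x axis) for the 86 members, with black points called in both lines, grey in 1 and open in neither, and a line of equal change. Most called members lie near the line, while *KCNJ13*, *KCNMB2*, *KCNH1*, *KCNH5* and *KCND3* rose in *ROR2* KD cells and were near 0 in control cells.

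Genes that work beside potassium channels were examined as a list of 29, of which 24 were measured under a single symbol. On day 7, 1 was higher and 1 lower (8.33%, beside 0.277% of all genes), and on day 14, 1 was higher and 0 lower (4.17%, beside 1.7%). On day 21, 5 were higher and 2 lower (29.2%, beside 4.67%). Their median log2 difference on day 21 was 0.09, beside -0.02 over all genes (1 cluster per symbol). *ABCC9*, the sulfonylurea receptor that partners *KCNJ8*, read 3.49, 4.60 and 3.62 in control and 7.59, 7.14 and 7.02 in *ROR2* KD cells on day 21 (log2 difference 3.35, SE 0.306, adjusted p = 1.29e-07), all below background. *KCNJ8* itself was high in both lines, with day 21 means of 9.39 and 8.97, and was not called (log2 difference -0.42, SE 0.242, adjusted p = 0.59).

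*CNTNAP2*, which clusters voltage-gated channels along the axon, read 9.20, 8.86 and 9.0 against 11.31, 10.94 and 11.36 on day 21 (log2 difference 2.19, SE 0.202, adjusted p = 1.46e-07). Its partner *CNTN2* was 1.18 higher in *ROR2* KD cells on day 7 (adjusted p = 0.0279), when both lines were below background. It was 1.33 higher on day 14 (adjusted p = 0.00302) but differed by -1.68 on day 21 (SE 0.233, adjusted p = 6.59e-05). Its day 7 call was lost without any 1 of the control arrays and without *ROR2* KD replicate 2 or 3, which left 1 partner gene called on that day. The sodium pump subunits diverged on day 21, with *ATP1B1* 1.26 higher (adjusted p = 0.00084) and *ATP1B3* at -1.23 (adjusted p = 0.00123). *LGI1*, a secreted protein that binds KCNA complexes, was 1.37 higher (adjusted p = 0.00179), with both lines below background. *SLC12A5*, the neuronal potassium chloride cotransporter, was 1.22 higher (adjusted p = 0.00344) and above background on 2 *ROR2* KD and 0 control arrays. *DPP10*, an auxiliary protein of the A-type channels, was lower on day 7 (log2 difference -1.51, SE 0.210, adjusted p = 0.00154).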

How the data were processed

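The deposited values are log2 signals that the authors made with RMA in Transcriptome Analysis Console (1 value per array and transcript cluster), a method that removes background, makes arrays comparable and combines probes. The genome build and annotation version behind them are not given in the sources used here. They were used as deposited. The table holds 138745 probe sets. Without its 2995 array controls, 135750 clusters were tested, with no filter on dim clusters. A single symbol was given for 36176 clusters by the platform annotation, and 86 of 86 members were found in the RefSeq gene table. Array medians (4.26 to 4.51) and within-group correlations (0.963 to 0.987) were checked, and 0 pairs of arrays were identical. The number of arrays limits the precision.

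A means model of 8 groups was fitted to 24 arrays with limma 3.58.1 in R 4.3.3 (16 residual degrees of freedom), with contrasts between lines, between days and of these differences. Two-sided p-values were adjusted over all clusters (Benjamini-Hochberg). The model was tested on simulated data. Members and lists were chosen with earlier results of these data known. Genes named are the members called between the lines, the 6 largest rises and falls of each line from day 0 to 21, the 6 highest means and the called partner genes. *KCND2*, *KCNMB1* and *DPP6* on day 21, *DPP10* on days 14 and 21 and the second *KCNK1* cluster were added after their values were seen. So were *KCNK2*, *KCNJ8*, *KCNN1*, *KCNN3* and *KCNC1*. Lower bounds use the background level of the dim group. Overlapping genes could be checked for 8 of the called members, with 0 of 14 such genes called. *KCNJ12* and *KCNJ18* are near-identical copies. Alternatives were other fits, scalings, filters, thresholds and each array left out. Figures were drawn with matplotlib.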

Additional observations from a re-analysis of the deposited data

Results flagged for a closer look

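For 7 members the difference between the cell lines changed between consecutive days by a test of that change itself (limma, Benjamini-Hochberg adjustment over all clusters), in 8 instances. With the adjustment over 1 cluster per symbol there were 16. From day 0 to 7 this was *KCNK10* (2.23, adjusted p = 0.0127). From day 7 to 14 these were *KCNJ13* (4.96, adjusted p = 1.84e-08), *KCNH8* (3.53, adjusted p = 0.000145), *KCNQ3* (-3.41, adjusted p = 9.81e-07) and *KCNK10* (-1.78, adjusted p = 0.0105). From day 14 to 21 these were *KCNMB2* (3.22, adjusted p = 0.000416), *KCNMA1* (1.94, adjusted p = 0.00603) and *KCND3* (1.91, adjusted p = 0.0211). The calls changed direction for *KCNQ3* and *KCNK10*, and *ROR2* itself differed less on day 21 than on day 14 (1.68, adjusted p = 0.0342).

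A second transcript cluster of *KCNAB1*, an auxiliary subunit of KCNA channels, carried a signal that the cluster used above does not show. It averaged 7.34 ± 0.263 (SD, n = 3) in *ROR2* KD and 4.72 ± 0.470 in control cells on day 21, a log2 difference of 2.62 (SE 0.348, adjusted p = 3.54e-05 in limma). All 6 values lay below background. The cluster with the higher mean over all arrays differed by -0.12 (adjusted p = 0.958).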

How the results depend on the processing

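The 19 calls of single genes between the lines were each tried under the alternative settings, which gave 392 trials. Of these, 338 kept the call, 54 lost it and 0 reversed the direction. The settings with a lower fold threshold or none use the same fit and could not lose a call, so their part of the 338 was fixed in advance. Leaving out 1 array gave 1 to 5 calls on day 7 (4 with all arrays), 3 to 4 on day 14, 8 to 10 on day 21 and, for partner genes on day 7, 1 to 2 (2 with all arrays). With only the 6 arrays of a day, the members called were 1 on day 7, and partner genes 0 on day 7 and 4 on day 21. *KCNJ13* (adjusted p = 0.121), *KCNK12* and *KCNQ3* then lost their day 7 calls, and *KCNK10* (0.104) and *KCNS3* (0.108) those of day 21. Quantile normalization left 2 members and 1 partner gene on day 7. An unpaired t-test per cluster, with Benjamini-Hochberg adjustment, was also run. The study names a t-test for group comparisons in general, but its adjusted p-values for the arrays came from Transcriptome Analysis Console. This t-test called 0, 2 and 1 members on days 7, 14 and 21 and 0 partner genes on each. In *ROR2* KD cells it called 11 and 22 members from day 0 to 7 and 21. *KCNJ13* then had an adjusted p of 0.0741 on day 14. With only the 20709 clusters above background on at least 3 arrays, which keep 18 members, 5 were called on day 21 (3 higher, 2 lower), 12, 14 and 16 from day 0 to days 7, 14 and 21 in control and 9, 15 and 17 in *ROR2* KD cells. Without a fold threshold, or with one of 1.5, 37 members were called from day 0 to 7 in *ROR2* KD cells and 2 partner genes on day 14. With 1 cluster per symbol, 16 changes of the difference were called (8 over all clusters).

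Same-numbered arrays of the lines correlated in their residuals at -0.02 to 0.22, over 0.1 in 1 of 12 pairs, so the numbers do not pair them. The replicate block gave 4, 4 and 11 calls on days 7, 14 and 21 and 9 changes of the difference, and ended no call of a single gene. The last alternatives were chosen after seeing the data. Without the 4 arrays of highest median, 1 partner gene was called on day 7, and *KCNQ3* on day 7 and *KCNJ6* and *KCNK10* on day 21 lost their calls. Shifting arrays by their median background moved the median of all clusters by 0.31 to 0.48 in the comparisons with day 0 and left *KCNK10* at -0.98 on day 21. For most members the signal over background limits what can be measured.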
